A study of Mus musculus with 2 samples.

Results

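The GIMAP genes encode GTPases of immune-associated proteins, a family that sits in 1 cluster of the mouse genome. The 8 genes whose symbols in the deposited gene list read Gimap1, Gimap3, Gimap4, Gimap5, Gimap6, Gimap7, Gimap8 and Gimap9 were taken from 31253 genes in all, by symbol and without regard to their values, and no other symbol in the list begins with Gimap. Single-cell RNA was measured in thymocytes that had been enriched with beads against CD25, the interleukin-2 receptor alpha chain carried by early CD4- CD8- double-negative (DN) thymocytes and by regulatory T cells. WT mice gave 1 library, and SETDBf/fCD4-Cre mice, here called cKO, gave the other, both from thymus and both enriched in the same way. The cKO mice carry a floxed allele labelled SETDB, which does not say which SETDB gene is meant, and a Cre recombinase under Cd4 control that is known to act from the end of the DN stage. The age, sex and number of mice per library are not given in the sources used here, and the 3′ tags counted here do not check the deletion. With 1 library per genotype there is no replicate, so no test between genotypes was made, and every interval below is a 95% interval that covers counting error only.

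GIMAP proteins share a guanine-nucleotide-binding domain known as the AIG1 domain, and several of them are anchored in membranes of organelles. They are expressed mainly in lymphocytes and are best known for the survival of T cells: loss of Gimap5 makes rats and mice short of naive T cells, and loss of Gimap1 depletes mature T and B cells. Gimap3 is the closest relative of Gimap5, Gimap4 has been linked to the pace of T cell death, Gimap6 binds a protein of the autophagy machinery, and Gimap8 is the member with repeated AIG1 domains. In the thymus, cells pass from DN through the CD4+ CD8+ double-positive (DP) stage to mature T cells that switch on Klf2 and S1pr1, a transcription factor and a lipid receptor needed for leaving the organ.

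The WT files held 7852 barcodes with 89370968 UMIs (unique molecular identifiers, each standing for 1 captured transcript end) and the cKO files 8461 barcodes with 76668166 UMIs. After filters and doublet removal 6989 WT and 7372 cKO cells were kept, whose median depths were 7700 and 4653 UMIs, and 16 barcodes occurred in both libraries. Cells were placed in 12 stages by marker genes, none of them a Gimap gene. Marker genes that the gates did not use were at least 2-fold above all other cells for 4 of 4 genes in DN3 and agonist-signalled cells, 3 of 4 in resting DP and post-selection cells, 4 of 5 in Foxp3-positive cells, 3 of 5 in mature conventional cells, 5 of 5 in effector lymphocytes and 4 of 4 in B cells, in both libraries. Early DN cells had 5 of 5 such markers in WT and 4 of 5 in cKO. In cycling cells without Cd8 none of 4 cycle genes reached 2-fold, where the other cells include the second cycling gate, and in cycling Cd8-positive cells 2 of 4 did. The compared stages ran in size from 2084 WT and 3053 cKO resting DP cells down to 51 WT post-selection and 51 cKO agonist-signalled cells. Foxp3-positive cells without egress genes (54 WT, 19 cKO) and B cells (48 and 30) were below 50 cells in a library, so their genotype ratios carry no call.

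The first question was in which stages the family is expressed. Summed over the 8 genes, the level was lowest in dividing thymocytes and highest in Foxp3-positive and conventional T cells that carried the egress genes. In WT it was 141 UMIs per 1000000 UMIs of the stage (CPM) in cycling Cd8-positive cells (137 to 146), 182 in cycling cells without Cd8 (177 to 188), 306 in DN3 cells (296 to 315), 408 in early DN cells (391 to 425) and 701 in resting DP cells (680.3 to 721). It was 897 in post-selection cells (796 to 1008), 707 in agonist-signalled cells (636 to 785), 822 in effector lymphocytes (765 to 882), 1378 in mature conventional cells (1311 to 1448) and 1549 in Foxp3-positive cells with egress genes (1495 to 1605). The order was the same in cKO for the lowest 4 and the highest 2 of these stages, with 151 in cycling Cd8-positive cells, 206 in cycling cells without Cd8, 319 in DN3, 415 in early DN, 1411 in mature conventional and 1833 in Foxp3-positive cells with egress genes. Between them the order is not resolved: in WT the intervals of resting DP and agonist-signalled cells overlap, as do those of effector lymphocytes and post-selection cells. B cells, which stand outside the thymocyte sequence, held 398 in WT (347 to 455) and 515 in cKO (448 to 589).

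**Figure D1:**
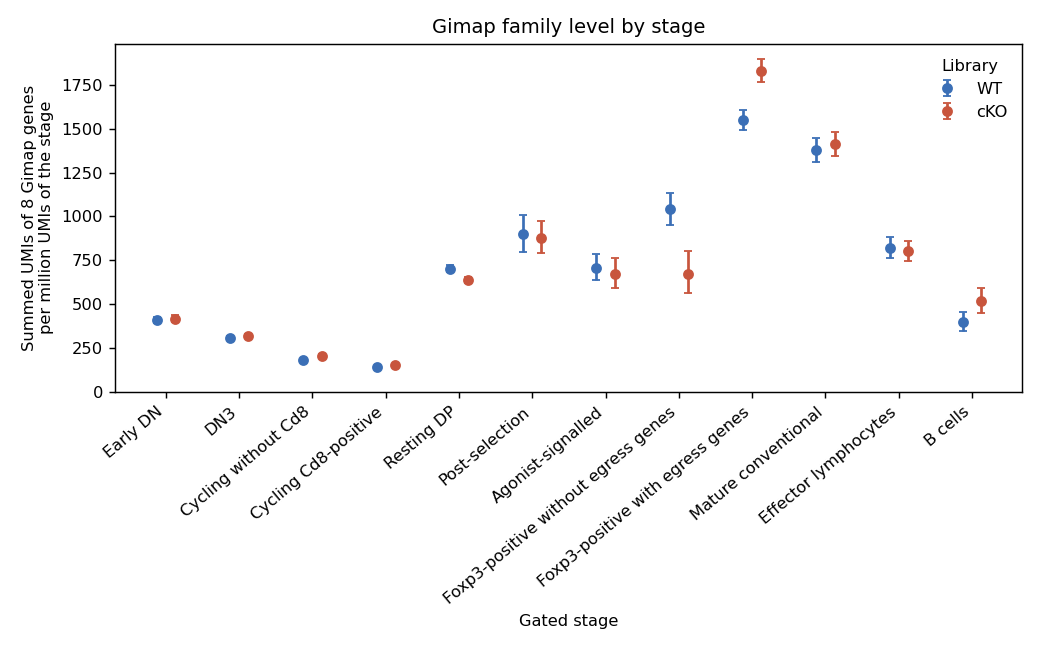
Summed level of the 8 Gimap genes in CPM of each gated stage (vertical axis) in the WT and cKO libraries; points are pooled levels of 1 library and bars are exact Poisson intervals. Levels lie between 141 and 206 in the dividing stages and between 1378 and 1833 in the mature conventional cells and the Foxp3-positive cells with egress genes.

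The family level was about 2-fold higher in mature conventional than in resting DP cells. The ratio was 1.97 in WT (1.86 to 2.08) and 2.21 in cKO (2.09 to 2.34). Members moved very unequally. In WT 5 of 8 members were at least 1.5-fold higher in mature conventional cells on the scale of log2(CPM + 5), the scale of all calls below, where 11% of all 10017 genes tested were, and no member was lower, where 31% of all genes were. In cKO 6 of 8 were higher and none lower, against 11.8% and 29.4% of all genes. The median member was 0.87 higher on the log2 scale in WT and 1.14 in cKO. Over all genes the medians were -0.29 and -0.27. From resting DP to Foxp3-positive cells with egress genes 6 of 8 members were higher in each library, against 12.8% of all genes in WT and 11.4% in cKO. These comparisons lie within 1 library each and share their resting DP cells.

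Gimap3 and Gimap4 set the extreme. In WT, Gimap4 had 5 UMIs among 2084 resting DP cells and 266 among 159 mature conventional cells, or 0.774 against 234 CPM. The ratio was 303 (128 to 941). In cKO it had 4 UMIs among 3053 resting DP cells and 298 among 187 mature conventional cells, a ratio of 537 (208 to 1985). Gimap3 had 10 against 195 UMIs in WT, a ratio of 111 (59.1 to 235), and 7 against 195 in cKO, a ratio of 201 (95.7 to 506). Both genes were thus close to unmeasured in resting DP cells of both libraries, and these ratios rest on 10 or fewer UMIs in the denominator. Both were near 0 in DN3 cells as well, where Gimap3 had 4 UMIs in each library and Gimap4 had 6.

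Unlike this pair, Gimap1, Gimap6 and Gimap9 were well measured in every stage. Gimap5 was also found in every stage, at lower levels. Gimap1 and Gimap9 changed little from resting DP to mature conventional cells, whereas Gimap6 rose. Gimap1 lay at 131 CPM in WT DN3 cells, 247 in resting DP cells and 264 in mature conventional cells, and at 129, 229 and 241 in cKO. Its ratio of mature conventional to resting DP cells was 1.07 in WT (0.942 to 1.21) and 1.05 in cKO (0.926 to 1.19), and that of Gimap9 was 0.882 (0.727 to 1.06) and 0.967 (0.800 to 1.16). All 4 intervals include 1. Gimap6 rose in steps, from 50.8 in WT DN3 cells to 235 in resting DP cells and 414 in mature conventional cells, and in cKO from 51.6 to 218 and 440. Gimap1 therefore supplied 43.0% of the family's UMIs in WT DN3 cells and 17.4% in WT Foxp3-positive cells with egress genes, whereas Gimap3 and Gimap4 went from 0.0975% and 0.146% to 19.8% and 15.0%. These shares are of counted transcript ends and are not divided by transcript length.

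The bases before the start sites of 4 members are shown, because these differ in stage pattern within 1 cluster. Gimap3 and Gimap4 were close to unmeasured in resting DP cells, whereas Gimap1 and Gimap6 were present in every stage. Promoter sequences are from RefSeq on GRCm38.p6, where all 8 members matched. Each run is the 250 bases upstream of the start, read 5′ to 3′ on the gene's strand, and capitals mark matches to the RUNX, KLF or FOXO letters searched on both strands. The RUNX letters were TGTGGT. For KLF they were CCACCC. For FOXO they were TGTTTAC.
Gimap3, chr6:48770852-48771101, minus strand: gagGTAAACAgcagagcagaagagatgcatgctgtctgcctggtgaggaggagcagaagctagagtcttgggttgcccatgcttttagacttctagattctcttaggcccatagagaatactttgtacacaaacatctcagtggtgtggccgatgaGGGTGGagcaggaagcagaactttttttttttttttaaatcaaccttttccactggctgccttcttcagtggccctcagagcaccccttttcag
Gimap4, chr6:48684328-48684577, plus strand: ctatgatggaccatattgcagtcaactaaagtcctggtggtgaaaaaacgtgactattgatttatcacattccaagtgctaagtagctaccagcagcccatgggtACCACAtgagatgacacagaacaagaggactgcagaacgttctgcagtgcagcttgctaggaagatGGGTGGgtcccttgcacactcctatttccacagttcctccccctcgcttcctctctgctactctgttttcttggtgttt
Gimap1, chr6:48738797-48739046, plus strand: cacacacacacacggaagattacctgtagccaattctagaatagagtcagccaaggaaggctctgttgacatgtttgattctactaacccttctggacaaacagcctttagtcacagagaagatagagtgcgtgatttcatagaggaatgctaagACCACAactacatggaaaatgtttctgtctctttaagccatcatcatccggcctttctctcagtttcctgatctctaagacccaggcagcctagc
Gimap6, chr6:48708245-48708494, minus strand: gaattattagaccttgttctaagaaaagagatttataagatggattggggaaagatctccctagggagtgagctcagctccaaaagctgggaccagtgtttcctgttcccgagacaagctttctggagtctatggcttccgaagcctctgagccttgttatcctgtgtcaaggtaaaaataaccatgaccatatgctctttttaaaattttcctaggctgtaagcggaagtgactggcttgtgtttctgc
Gimap3 held the KLF letters from base -94 and the FOXO letters from base -247 relative to the start, and Gimap4 held the RUNX letters from -145 and the KLF letters from -79. Gimap1 held the RUNX letters from -95, and Gimap6 held none of the 3 sets. Over the first listed start of all 8 members the KLF letters occurred in 4 (Gimap3, Gimap4, Gimap5 and Gimap9) against 27.7% of 27025 RefSeq promoters of the same length. The RUNX letters occurred in 3 (Gimap1, Gimap4 and Gimap7) against 14.2%, and the FOXO letters in 1 against 3.09%. The short ETS core GGAA, which is not capitalised in the sequences, occurred in 7 against 93.4%. RefSeq lists a second start for Gimap8, whose window holds the KLF letters from -7 and 3 ETS cores. With it the KLF letters would occur in 5 of 8 members and the ETS core in 8. The E-box letters CAGCTG (12.8% of all promoters) and the TCF/LEF letters CTTTGA (14%) occurred in no member, which says only that these letters are not in this window. The KLF letters were present both in stage-restricted members and in Gimap9, which is broadly present. Such matches are descriptions of letters and not binding sites.

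The remaining members were Gimap8, Gimap7 and Gimap5. Gimap8 was low before the DP stage, with 36 UMIs among 1505 WT DN3 cells and 27 among 1110 cKO DN3 cells (2.68 and 2.74 CPM). It lay at 42.9 in WT and 37.2 in cKO resting DP cells, so that its DN3 level was 0.0625 of its resting DP level in WT (0.0429 to 0.0887) and 0.0738 in cKO (0.0478 to 0.109). Among the 6 members with at least 20 UMIs, Gimap6 showed the next largest step between these stages, at 0.217 in WT and 0.237 in cKO. For Gimap5, the member with the best known role in T cell survival, the DN3 level was 0.945 of the resting DP level in WT (0.802 to 1.12) and 0.954 in cKO (0.799 to 1.14), so it showed no step there that exceeded counting error. In cycling Cd8-positive cells Gimap5 lay below both stages, at 7.12 CPM in WT and 9.63 in cKO. It was already above its resting DP level in post-selection cells, at 2.50 in WT (1.61 to 3.73) and 2.06 in cKO (1.29 to 3.13). From resting DP to mature conventional cells its ratio was 2.04 in WT (1.55 to 2.64) and 2.67 in cKO (2.07 to 3.42). Gimap7, whose product can pair with other family members, had ratios of 5.21 (3.54 to 7.67) and 7.44 (5.18 to 10.7) for the same step and 9.13 and 7.48 CPM in resting DP cells. Of the 6 members with at least 20 UMIs, 5 were at least 1.5-fold lower in DN3 than in resting DP cells in WT, where 18.6% of all genes were, and 3 in cKO, where 21.5% were.

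**Figure D2:**
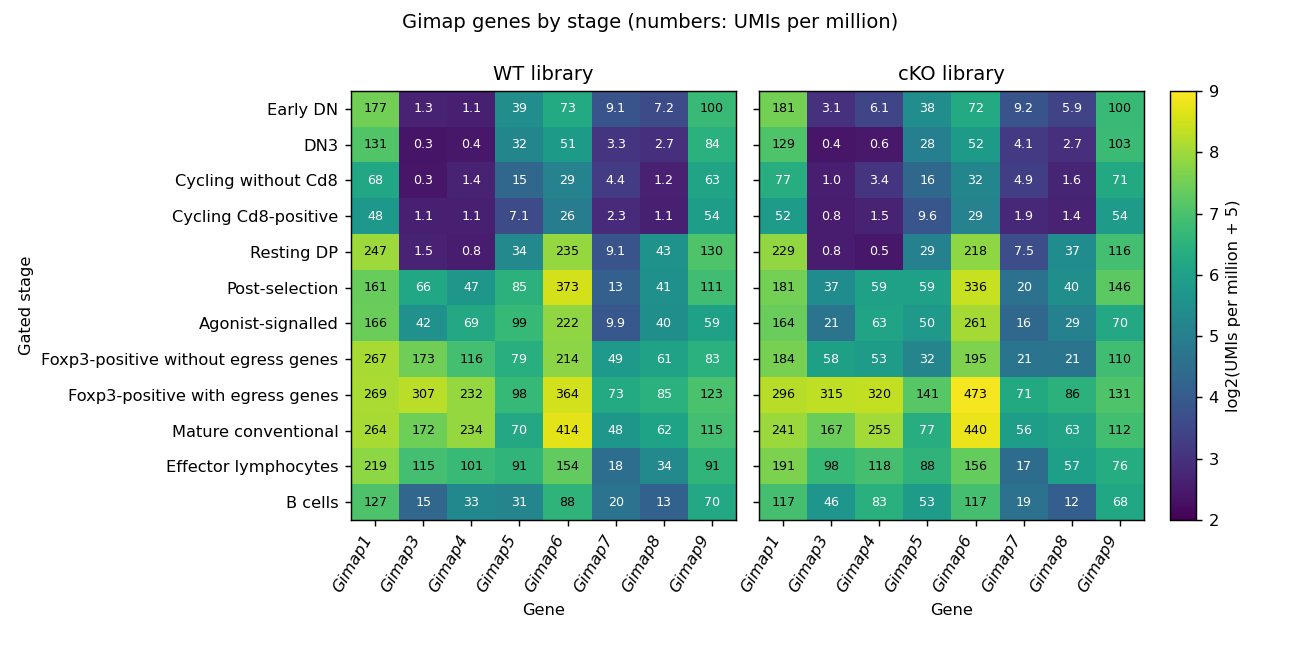
Level of each Gimap gene (columns) in each gated stage (rows) for the WT library and the cKO library; numbers are CPM and the colour is log2(CPM + 5). Gimap3 and Gimap4 are at 3.41 or less in DN3, cycling and resting DP cells and between 167 and 320.2 in mature conventional cells and Foxp3-positive cells with egress genes.

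The early stages were compared in the same way. From DN3 to cycling cells without Cd8 the family level was lower, with a ratio of 0.596 in WT (0.572 to 0.622) and 0.646 in cKO (0.617 to 0.677). Gimap1, Gimap5 and Gimap6 were at least 1.5-fold lower in both libraries, 3 of 7 members tested in WT and 3 of 8 in cKO, where 16.8% and 16.1% of all genes were. Cycling cells held a median of 25886.5 UMIs in WT against 8324 in DN3 cells, and a level in CPM does not show whether fewer Gimap transcripts or more of all other transcripts are behind a lower value. The mean number of Gimap UMIs per cell before scaling was not lower in the cycling cells, as 4553 UMIs came from 930 cells in WT and 4104 from 1505 DN3 cells. Early DN cells were above DN3 cells, with a ratio of 1.33 in WT (1.27 to 1.41) and 1.30 in cKO (1.22 to 1.38). There, Gimap7 and Gimap8 were called higher in WT and Gimap4 and Gimap7 in cKO, 2 of 6 and 2 of 7 members tested, against 4.87% and 4.77% of all genes.

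Gimap3 and Gimap4 were first measured above a few CPM in cells with signs of T cell receptor signalling. In post-selection cells, gated on Cd69, Itm2a, Cd5 and Ccr7, Gimap3 lay at 66.4 in WT (41.1 to 101) and 37.1 in cKO (20.8 to 61.2), and Gimap4 at 47.4 (26.5 to 78.2) and 59.3 (38.03 to 88.3). In agonist-signalled cells, gated on genes such as Nr4a1 and Tnfrsf4, Gimap3 lay at 41.6 and 20.9 and Gimap4 at 69.3 and 62.6. Members at least 1.5-fold above resting DP cells were Gimap3, Gimap4 and Gimap5 in WT, 3 of 8, and Gimap4, Gimap5 and Gimap7 in cKO, 3 of 7, against 15.4% and 16.3% of all genes. Gimap3 was not tested in that cKO comparison, with 8 and 7 UMIs. Gimap9 was lower in both libraries, at 0.457 (0.307 to 0.658) and 0.607 (0.398 to 0.888), as were 34.6% and 35.8% of all genes. From resting DP to post-selection cells Gimap3, Gimap4, Gimap5 and Gimap6 were higher in both libraries and Gimap7 in cKO, 4 of 8 and 5 of 8, against 11.4% of all genes in each. Gimap1 was lower in WT, at 0.652 (0.483 to 0.861), and no member was in cKO, where 30.7% and 27% of all genes were. From agonist-signalled to mature conventional cells the family ratio was 1.95 in WT (1.74 to 2.19) and 2.10 in cKO (1.84 to 2.40). In that step WT had 6 of 8 members called higher, and cKO had 7 of 8, against 12.2% and 15.5%. These small gates held 51 to 67 cells a library. In the WT post-selection cells 971 of the 979 UMIs of Cd74, a gene of antigen-presenting cells, lay in 1 cell, as did 275 of 340 in the WT agonist-signalled cells, and the part of such cells in the Gimap levels was not tested.

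Shares of cells with at least 1 UMI were compared after each cell was thinned at random to 2000 UMIs, with shallower cells left out, because depth differs between stages and libraries. This left out 426 of 2084 WT and 984 of 3053 cKO resting DP cells, and 2 of 240 and 2 of 260 Foxp3-positive cells with egress genes. Some Gimap transcript was found in 74.8% of WT resting DP cells (72.6 to 76.9) and 72.0% of cKO resting DP cells (69.98 to 73.9), 86.7% and 87.4% of mature conventional cells, and 93.7% (89.8 to 96.4) and 95.3% (92.0 to 97.6) of Foxp3-positive cells with egress genes. In B cells, a lineage that also expresses Gimap genes, the shares were 57.4% and 60.7%. Without thinning they were 81.9% and 75.5% in resting DP cells, at median depths of 2506 and 2276 UMIs, and 100% and 99.2% in Foxp3-positive cells with egress genes, at median depths of 5966 and 5556.5.

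Single members separated the stages more sharply than their sum. Gimap3 was found in 6 of 1658 WT and 2 of 2069 cKO resting DP cells after thinning, or 0.362% and 0.0967%, but in 50.8% (44.3 to 57.4) and 47.7% (41.4 to 54.0) of Foxp3-positive cells with egress genes. Gimap4 was found in 0.302% and 0.0967% of resting DP cells, 39.9% and 36.3% of mature conventional cells, and 41.6% and 45.0% of Foxp3-positive cells with egress genes. In DN3 cells Gimap4 was found in 0 of 1503 WT cells, a detection at this depth with a Clopper-Pearson upper bound of 0.245%, and in 2 of 1110 cKO cells at 2000 UMIs. Without thinning it was found in 6 of 1505 WT cells (0.399%) and 3 of 1110 cKO cells (0.270%). The median depths of DN3 cells were 8324 and 8121 UMIs. Gimap6 in contrast was found in 39.0% and 36.3% of resting DP cells and 54.6% and 60.5% of Foxp3-positive cells with egress genes. At 2000 UMIs, 3 or more different members were seen together in 9.77% of WT and 6.67% of cKO resting DP cells, 42.4% and 35.2% of mature conventional cells, and 54.6% and 53.5% of Foxp3-positive cells with egress genes, but in 0.998% and 1.62% of DN3 cells.

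**Figure D3:**
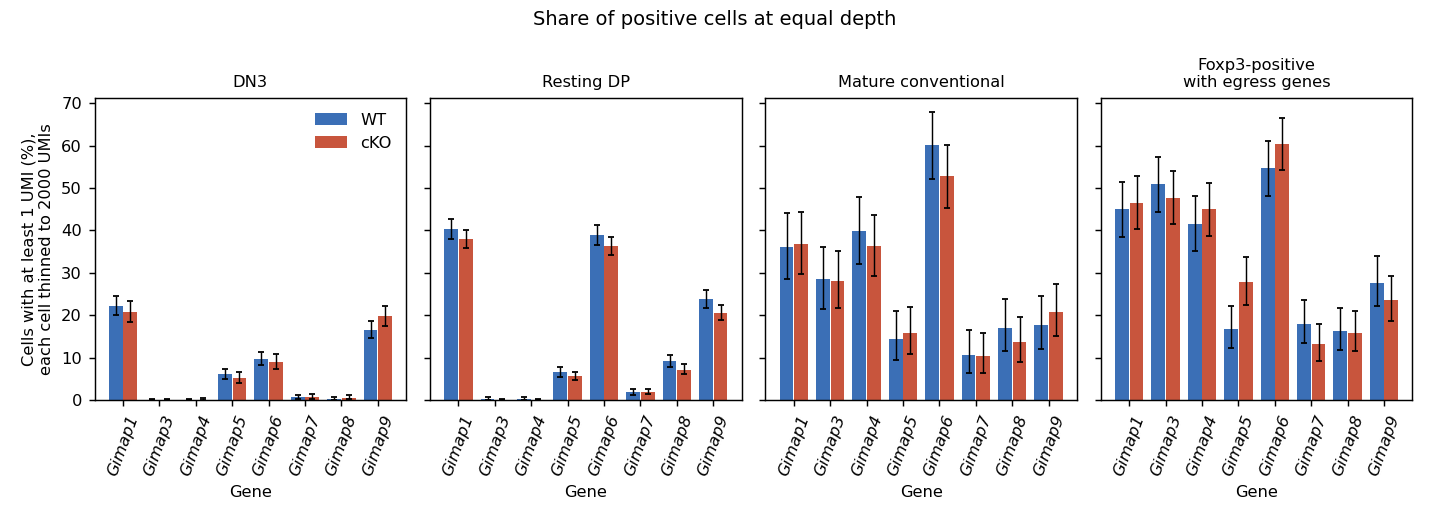
Share of cells with at least 1 UMI of each Gimap gene (vertical axis, percent) after thinning each cell to 2000 UMIs, in 4 stages of the WT and cKO libraries; bars start at 0 and error bars are exact Clopper-Pearson intervals. Gimap3 and Gimap4 stay at or below 0.362% in DN3 and resting DP cells and reach 28.0% to 50.8% in the mature conventional and Foxp3-positive cells.

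The study's main comparison was between genotypes. In DN3 cells, gated from a stage at which Cd4-driven Cre is known to be at most beginning to act, the family ratio of cKO to WT was 1.04 (0.996 to 1.09). It was 1.02 in early DN cells (0.953 to 1.09), 0.978 in post-selection cells (0.834 to 1.15), 0.951 in agonist-signalled cells (0.807 to 1.12), 1.02 in mature conventional cells (0.955 to 1.10) and 0.976 in effector lymphocytes (0.883 to 1.08). All of these intervals include 1. The ratio was 1.13 in cycling cells without Cd8 (1.08 to 1.18), 1.07 in cycling Cd8-positive cells (1.01 to 1.12), 0.910 in resting DP cells (0.874 to 0.947) and 1.18 in Foxp3-positive cells with egress genes (1.13 to 1.24). These 4 lie outside counting error, but how much 2 libraries of the same genotype would differ is not known here. Over all kept cells, whose mix of stages differs between the libraries, the ratio was 1.13 (1.11 to 1.14), and no member passed 1.5-fold, where 0.265% of all genes were higher in cKO and 0.229% lower.

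Few single members passed 1.5-fold between genotypes. None did in DN3 cells, where 0.287% of all genes were higher in cKO and 0.439% lower, in either cycling stage (0.292% and 0.215% without Cd8, and 0.212% in both directions in Cd8-positive cells), in resting DP cells (0.612% and 0.287%), in Foxp3-positive cells with egress genes (3.54% and 4.77%) or in mature conventional cells (5.67% and 3.18%). None did among the ungated cells either (1.45% and 3.14%). Members with at least 20 UMIs over both libraries numbered 6 in DN3 and resting DP cells, 7 in early DN, post-selection, agonist-signalled and other cells, and 8 elsewhere. In the cells of other types Gimap4 was higher in cKO, with 27 UMIs in 8 of 104 cells against 5 in 2 of 93 WT cells (3.52% of all genes were higher there and 2.72% lower). The myeloid genes Lyz2, Csf1r and Cd68 summed to 130 CPM in these WT and 632 in these cKO cells. For Cd79a, Cd79b, Ms4a1, Ebf1 and Cd74, read as B cell genes, the sums were 731 and 1286, with Cd79a and Ms4a1 at 0 in both, and the part of such cells was not tested. The other calls were in stages or members with few UMIs. In early DN cells Gimap4 was higher in cKO, with 24 UMIs in 10 of 302 cells against 6 UMIs in 3 of 434 WT cells, a ratio of 5.37 (2.14 to 16.1), where 0.656% of all genes were called higher and 1.24% lower. The cKO cells with Gimap4 were 3.31% of the gate, and Ccr7, a chemokine receptor of mature and post-selection cells, stood at 35.5 CPM in these cKO cells against 7.04 in WT. With gates on cells thinned to 2000 UMIs the Gimap4 call was lost, at 1.40-fold on the scale of the calls. Whether a few cells of a later stage in this gate carry both genes was not tested.

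In post-selection cells Gimap3 was lower in cKO (0.559, 0.268 to 1.14), as were 8.28% of all genes while 12% were higher, and in agonist-signalled cells Gimap3 (0.501, 0.192 to 1.18) and Gimap5 (0.5002, 0.278 to 0.863) were lower, as were 8.92% while 8.63% were higher. Gimap5 there had 50 UMIs in 23 of 53 WT cells and 19 UMIs in 16 of 51 cKO cells. The share of agonist-signalled cells with Gimap5 was 43.4% in WT and 31.4% in cKO without thinning, 24.5% (13 of 53 cells) and 12.2% (6 of 49) at 3000 UMIs, and 5.66% (3 of 53) and 12% (6 of 50) at 2000 UMIs. The direction of these shares thus differed with depth, but at 2000 UMIs their ratio of 2.12 had an interval of 0.453 to 13.1. The ratio of Gimap5 levels lay between 0.505 and 0.569 on the scale of the calls, in the main setting and 6 alternatives. In effector lymphocytes Gimap8 was higher in cKO (1.68, 1.07 to 2.67), with 32 UMIs in 23 of 95 WT cells and 57 in 38 of 97 cKO cells, and 6.25% of all genes were higher and 7.26% lower. On the scale of the calls this was 1.59-fold, and the call was lost as a mean over cells, at 1.13-fold, and with the looser cell filter, at 1.47-fold. Ly6c2, a gene of memory and effector T cells, lay at 3.20 CPM in WT and 18.1 in cKO effector lymphocytes, and 3 innate and gamma-delta T cell genes (Trdc, Klrb1c and Fcer1g) summed to 244 and 764, and their part in the Gimap8 value was not tested. In cycling cells without Cd8, Gimap4 had 34 UMIs in 21 WT cells and 71 in 28 cKO cells, a ratio of 2.51 (1.64 to 3.89) that the pseudocount of 5 keeps under 1.5-fold. The single cell with the most Gimap4 held 8 of these UMIs in WT and 13 in cKO. At 2000 UMIs Gimap4 was found in 4 of 929 WT and 4 of 778 cKO cells of this stage. At 3000 UMIs it was found in 2 of 929 and 8 of 777. Klf2 was higher in this stage in cKO, at 36.9 against 17.8 CPM.

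**Figure D4:**
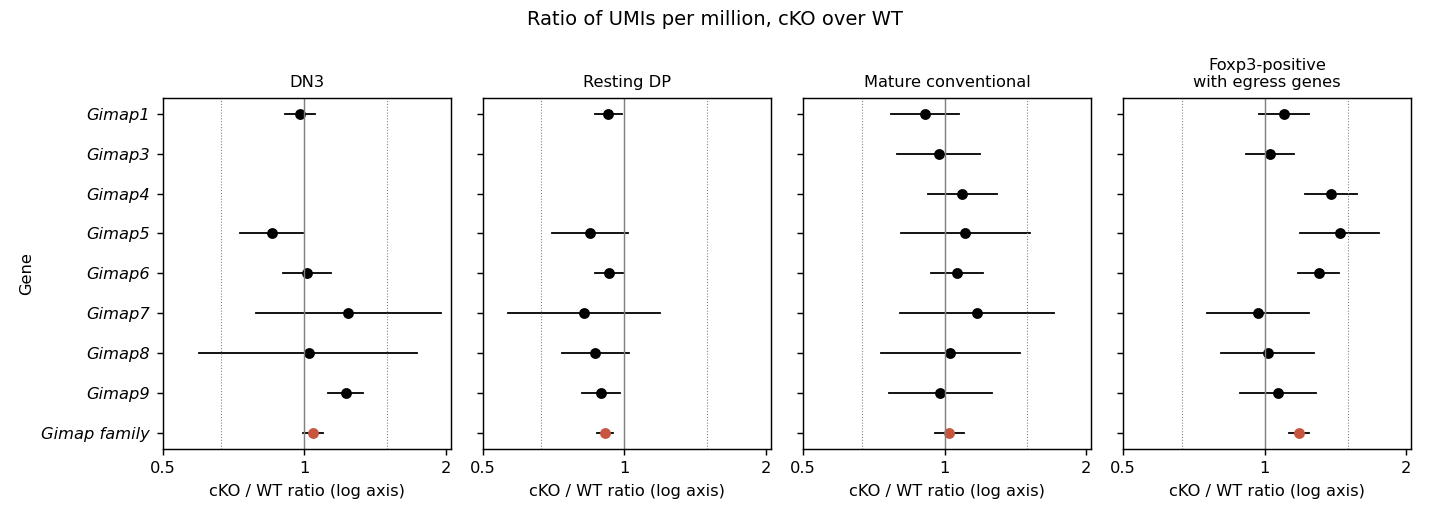
Ratio of CPM in cKO over WT (horizontal log axis) for each Gimap gene and for their sum (red) in 4 stages; bars are exact binomial intervals, dotted lines mark 1.5-fold, and genes with fewer than 20 UMIs over both libraries are not drawn. In Foxp3-positive cells with egress genes Gimap4, Gimap5 and Gimap6 lie between 1.30 and 1.44 and the other 5 members between 0.969 and 1.10.

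In resting DP cells the ratio of cKO to WT was below 1 for all 6 members tested. Gimap1 had a ratio of 0.925 (0.865 to 0.989), Gimap5 0.844 (0.701 to 1.02), Gimap6 0.927 (0.865 to 0.993), Gimap7 0.820 (0.566 to 1.19), Gimap8 0.868 (0.736 to 1.02) and Gimap9 0.893 (0.814 to 0.981). The median member was -0.17 on the log2 scale and the median of all genes 0.0024. The intervals of Gimap1, Gimap6 and Gimap9 end below 1. Klf2 lay at 36.5 CPM in WT and 27.4 in cKO resting DP cells. Cd74 had 21 UMIs in the WT and 650 in the cKO resting DP cells, 290 of the latter in 1 cell, and the part of such cells in the Gimap ratios was not tested. In DN3 cells Gimap9 stood apart, with 1134 WT and 1018 cKO UMIs and a CPM ratio of 1.23 (1.12 to 1.33), while Gimap5 was at 0.852 (0.729 to 0.994).

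Foxp3-positive cells with egress genes held the highest family level in both libraries. Gimap3 did not differ beyond counting error there, with 603 UMIs in 192 of 240 WT cells and 553 in 195 of 260 cKO cells, a ratio of 1.02 (0.911 to 1.15). Gimap4 had 455 UMIs in 176 WT cells and 563 in 189 cKO cells, or 232 and 320.2 CPM, a ratio of 1.38 (1.22 to 1.57). Gimap5 had 192 and 248 UMIs, a ratio of 1.44 (1.19 to 1.75), and was found in 16.8% of WT (12.3 to 22.2) and 27.9% of cKO cells (22.5 to 33.8) after thinning to 2000 UMIs, a ratio of shares of 1.66 (1.11 to 2.51). At 3000 UMIs these shares were 26.96% and 31.4%, and their ratio was 1.17 (0.824 to 1.66). Gimap6 had 714 and 832 UMIs, a ratio of 1.30 (1.18 to 1.44). The other 5 members lay between 0.969 and 1.10 with intervals that include 1. A 1.25-fold threshold among genes with at least 200 UMIs was chosen after the values had been seen. With it Gimap4, Gimap5 and Gimap6 were higher, 3 of 8, against 8.64% of all genes, and none was lower, against 8.37%. This threshold lies below the 3 ratios already known, so the count follows from its choice and adds no support. It called no member in resting DP, mature conventional, DN3 or cycling cells without Cd8, with 4 or 5 members tested in each. Mature conventional cells gave ratios of 1.09 for Gimap4 (0.920 to 1.29), 1.11 for Gimap5 (0.810 to 1.52) and 1.06 for Gimap6 (0.935 to 1.21), and whether the 2 stages differ was not tested.

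The egress genes themselves differed within this gate. Klf2 lay at 1294 CPM in WT and 1902 in cKO, or 1.47-fold (1.40 to 1.55), and S1pr1 at 150.2 and 198. Rag1, which marks recently DP cells, lay at 9.16 and 33.0. Foxp3-positive cells of both gates, with and without egress genes, were also compared in bins of their Klf2 and S1pr1 UMIs. This alternative was chosen after seeing the data. The bin of 3 or more UMIs has no upper end, and levels of the pair within it were not compared. In cells with 3 or more UMIs of the pair among 2000, the family level was 2184 CPM in 136 WT cells (2012 to 2367) and 2408 in 190 cKO cells (2254 to 2569), a ratio of 1.10 (0.993 to 1.22). With 2 UMIs the ratio was 1.13 (0.871 to 1.47), with 1 it was 0.732 (0.536 to 0.988), and with 0 it was 1.13 (0.852 to 1.48), in 25 to 65 cells each. In 3 of the 4 bins the ratio was thus 1.10 to 1.13 with an interval that includes 1, in few cells, and the part of the egress genes in the ratio of 1.18 was not tested. In WT the family level was 1385 with 0 such UMIs and 2184 with 3 or more, so within Foxp3-positive cells it was higher where the egress genes were higher. Between the 2 Foxp3-positive gates of WT the family ratio was 1.49 (1.35 to 1.64), with Gimap3, Gimap4 and Gimap6 called higher in the cells with egress genes, 3 of 8, against 8.63% of all genes. In cKO it was 2.72 (2.28 to 3.27), with 7 of 8 members called higher, against 22.8% of all genes, but only 19 cKO cells lacked egress genes. In those cells the family ratio of cKO to WT was 0.646 (0.528 to 0.786), from 54 WT and 19 cKO cells, and carries no call. When the gates themselves were applied to cells thinned to 2000 UMIs, which left 96 cKO and 80 WT cells with egress genes, the family ratio was 1.04 and that of Gimap4 1.02. Over the full gates of 240 WT and 260 cKO cells, 5 endothelial markers summed to 76.9 and 80.2 CPM, all of it from Pecam1, with Cdh5, Kdr, Cldn5 and Esam at 0 in both libraries.

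**Figure D5:**
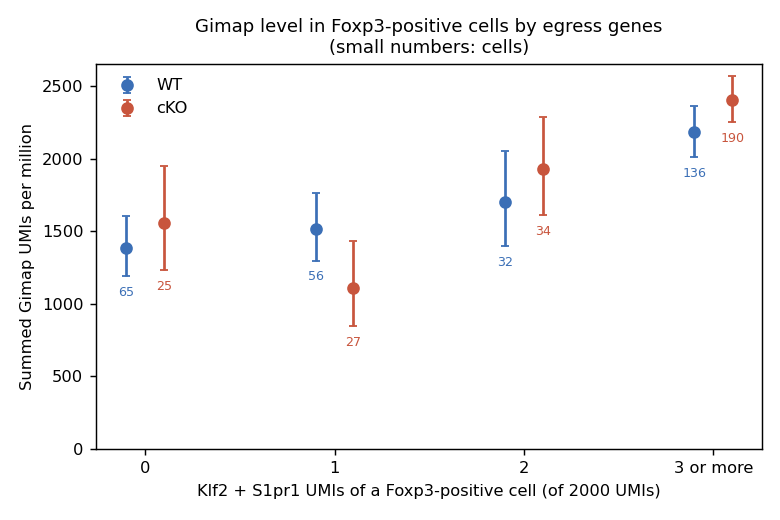
Summed Gimap CPM (vertical axis) in Foxp3-positive cells thinned to 2000 UMIs, by the number of Klf2 and S1pr1 UMIs in the thinned cell (horizontal axis); bars are exact Poisson intervals and small numbers are cells. The level goes from 1385 to 2184 in WT and from 1560.0 to 2408 in cKO between the first and the last bin, and the second bin in cKO is the lowest at 1111.

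Foxp3-positive cells with egress genes were above mature conventional cells, with a mature conventional level of 0.890 of theirs in WT (0.836 to 0.946) and 0.770 in cKO (0.725 to 0.817). Gimap3 was the member called in both libraries, at 0.560 in WT (0.474 to 0.659) and 0.531 in cKO (0.449 to 0.627), and Gimap5 was called in cKO, at 0.547 (0.425 to 0.699), against 7.88% and 6.02% of all genes. Gimap1, Gimap6 and Gimap9 lay between 0.813 and 1.14. In effector lymphocytes, gated on Cxcr6, Il18r1, Ccr2, Il2rb and Nkg7, the stage-restricted pair was present at lower levels, with Gimap3 at 115 CPM in WT and 98.3 in cKO and Gimap4 at 101 and 118. Gimap6 was below its resting DP level there, at 0.654 (0.547 to 0.776) in WT and 0.719 (0.607 to 0.847) in cKO. Gimap9 was too, at 0.697 (0.551 to 0.872) and 0.657 (0.513 to 0.830), without passing 1.5-fold in either library. Even so, 4 of 8 members were called higher than in resting DP cells in each library, against 12.9% and 13.9% of all genes. The Gimap6 value passed 1.5-fold in WT, where 28.5% of all genes were lower, and not in cKO, where 31.8% were.

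Of the 8 neighbours listed on the 2 sides of the cluster, Tmem176b and Repin1 are described here. These 2 had stage patterns unlike those of the family, and the patterns of the other neighbours are not given. In the RefSeq order of GRCm38.p6 the members follow each other as Gimap8, Gimap9, Gimap4, Gimap6, Gimap7, Gimap1, Gimap5 and Gimap3, with Lrrc61, Rarres2, Repin1 and Zfp775 on 1 side and Tmem176b, Tmem176a, Gm7932 and Aoc1 on the other. Tmem176b, a membrane protein gene next to Gimap3, lay at 147 CPM in WT DN3 cells, 44.7 in resting DP cells, 14.1 in mature conventional cells and 3.05 in Foxp3-positive cells with egress genes, and at 139.99, 51.1, 26.6 and 6.26 in cKO. In post-selection cells Tmem176b lay at 114 in WT and 29.7 in cKO. The cKO value lies within the order of those stages and the WT value does not, and the WT gate is the one with the Cd74-rich cell, whose part was not tested. Repin1, a zinc finger gene on the Gimap8 side, went from 47.9 in WT DN3 cells to 10.2 in resting DP cells and 1.76 in mature conventional cells.

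Other lists that bear on the family were read in the Foxp3-positive cells with egress genes, where 3.54% of all genes were higher in cKO and 4.77% lower. Of the BCL2 family, regulators of the same cell death that GIMAP proteins are linked to, 0 of 11 members tested were higher and 2 lower, both of them death-promoting: Pmaip1 at 29.5 CPM in WT and 15.4 in cKO, and Bid at 17.3 and 5.69. Bcl2, the survival factor, lay at 319 and 379, a ratio of 1.19 (1.07 to 1.33), and was at least 1.5-fold higher in cKO only in DN3 cells among the 10 stages compared, at 176 and 354. Of other interferon-linked immune GTPases 2 of 13 were higher, Iigp1 at 32.1 and 50.6 and Gbp2 at 26.0 and 41.5. Of the list of maturation and egress genes 2 of 20 were higher, Il7r, the interleukin-7 receptor, at 68.7 and 108 and Rag1 as above. The list's median was 0.17 on the log2 scale against -0.01 for all genes. That list holds Rag1, a mark of recently DP cells, beside Klf2 and S1pr1, which the gate used. Its median is therefore no measure of maturation. In mature conventional cells 2 of 19 of these genes were higher, Il7r at 44.1 and 117 and Cd69 at 160.4 and 256, where 5.67% of all genes were higher and 3.18% lower. The list's median was 0.34 against 0.01 for all genes, and no Gimap gene was called. The mature conventional gate also used Klf2 and S1pr1 and left out cells with Rag1, and Cd69 is a gene of the post-selection gate.

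The genes whose levels across 10 stages were most like the family sum were Sp100, Zfp281, H2-T23, Ltb, Bin2, Ikbke, Inpp4b and Tnip1. They were the 8 with the highest lower value of Pearson r over the 2 libraries among 5269 genes with at least 500 UMIs in each and a range of at least 1 on the log2 scale. Their r lay between 0.957 and 0.979. Ltb, which encodes lymphotoxin beta, went from 171 CPM in WT resting DP cells to 723 in mature conventional cells, and H2-T23, a nonclassical MHC class I gene, from 229 to 508. Among the members r with the sum was 0.968 in WT and 0.963 in cKO for Gimap6, 0.968 and 0.952 for Gimap8, 0.835 and 0.857 for Gimap4 and 0.744 and 0.696 for Gimap9. The stages of a library share capture and depth, each member is part of the sum, and no test is attached to these values.

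Sequence shared with other genes was looked for because 3′ reads could be split between copies. In the last 500 bases of the longest coding transcript in GENCODE vM21, no run of 50 bases was shared between 2 members. Runs shared with other gene models made up 7.98% for Gimap1 (Gm10310 and Gm49762), 3.55% for Gimap3 (Gm38409) and 0 for the other 6. Gm28053, a read-through model that overlaps Gimap7, Gimap1 and Gimap5, held 10 UMIs in all kept WT cells and 8 in cKO.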

How the data were processed

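Single-cell RNA libraries were made with droplet 3′ chemistry from 1 WT and 1 cKO sample of CD25-enriched thymocytes. Values in the deposited matrices are raw UMI counts, made with Cell Ranger 6.1.1 per the file headers. CASAVA 1.8 and Seurat 4.0.3 appear in the submitters' processing notes. A genome build was not given in the sources used here. Cells were kept from 500 genes and 1000 UMIs upward if mitochondrial UMIs were 10% or less, with Python 3.11.15, scanpy 1.11.5, scipy 1.17.1, numpy 2.4.6 and pandas 2.3.3. Doublets were scored with Scrublet at an expected rate of 0.06. Its own threshold of 0.638 in cKO called 1 cell, so the WT threshold of 0.290 was used for both libraries, which removed 148 WT and 129 cKO cells.

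Each kept cell took the first gate it met. Gates were tried in the order B cells, other cells, Foxp3-positive cells (Foxp3 and Trac, split at 2 UMIs of Klf2 and S1pr1), cycling cells (5 UMIs of 8 cycle genes, split by Cd8), early DN (Kit and Cpa3), effector lymphocytes, mature conventional (2 UMIs of Klf2 and S1pr1, Trac, no Rag), agonist-signalled, post-selection, DN3 (Ptcra, Il2ra, Notch1 and Dtx1) and resting DP (Cd8 and Rag). Counts were summed per stage and library and given per 1000000 UMIs (CPM) with exact Poisson intervals, ratios with exact binomial intervals and shares with Clopper-Pearson intervals. A gene was called at 1.5-fold on log2(CPM + 5) among genes with at least 20 UMIs over the 2 sums compared. All 8 members were named, with the 8 genes most like them in stage pattern and list genes past 1.5-fold in the stage described. Other genes were named after their values were seen. The members, lists and gates were chosen with earlier results of these data known. Alternatives were other cell filters, kept doublets, stricter gates, gates on thinned cells, a mean over cells, a pseudocount of 1, a shift by the median of all genes, and leaving out shared barcodes. Values of some marker genes are not reported here.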

Additional observations from a re-analysis of the deposited data

Results flagged for a closer look

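The family ratio of cKO to WT pointed in opposite directions in different stages. It was 1.13 in cycling cells without Cd8, 1.07 in cycling Cd8-positive cells and 1.18 in Foxp3-positive cells with egress genes, against 0.910 in resting DP cells. Each of these stages was 1 library per genotype, and the difference between stages was not tested.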

How the results depend on the processing

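Of 118 alternative values of the main results, 91 stayed within a set limit and 27 moved further. The limit was counting error, or a set overlap for the genes of like pattern. A change of direction was counted only for values past 1.5-fold, which were the family ratios of mature conventional to resting DP cells. These did not change direction. On the log2 scale the family ratio of mature conventional to resting DP cells, 0.97 in WT and 1.14 in cKO, became 1.44 and 1.43 with gates on thinned cells, 1.11 and 1.26 as a mean over cells, and 1.26 and 1.41 relative to the median of all genes, which lay at -0.29 and -0.27. In cKO it was 1.02 with the stricter cell filter and 1.24 with stricter gates. The genotype ratio with gates on thinned cells was -0.10 in early DN, 0.058 in Foxp3-positive cells with egress genes and -0.13 in mature conventional cells. With the stricter cell filter it was -0.21 in resting DP and -0.12 in mature conventional cells. In the bins of all Foxp3-positive cells, added after seeing the data, the genotype ratio was -0.45 with 1 egress UMI and 0.14 with 3 or more. These bins were counted among the alternatives of the Foxp3-positive cells with egress genes. Early DN and mature conventional ratios thus changed sign. So did those of post-selection cells (-0.11 to 0.015) and effector lymphocytes (-0.092 to 0.045). The ratio of Foxp3-positive cells with egress genes stayed above 0 in the alternatives of that gate. The bins take in cells of both Foxp3-positive gates, so their values are not values of that gate alone. None of these ratios was called, and the cause was not tested. The resting DP ratio stayed between -0.21 and -0.12 in the alternatives run. Gimap4, Gimap5 and Gimap6 in Foxp3-positive cells with egress genes stayed above 0, with lowest values of 0.03, 0.10 and 0.18. Gimap1 did too, with a lowest value of 0.12, and the other members had values on both sides of 0.

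Shares of cells with a Gimap UMI depend on depth. Thinned to 3000 UMIs they were 81.1% and 78.6% in WT and cKO resting DP cells, 96.5% and 98.4% in Foxp3-positive cells with egress genes and 93.6% in cKO mature conventional cells. Without thinning they were 81.9% and 75.5%, 100% and 99.2%, and 98.1% and 97.3% in the same stages. With at least 2000 UMIs per gene, 5 of the 8 genes of like pattern were shared with those named. Post-selection and agonist-signalled cells under the stricter filter, and these with effector lymphocytes under stricter or thinned gates, had fewer than 50 cells in a library and gave no value. No paired analysis was possible because there is 1 library per genotype.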
